A study of Mus musculus with 19 samples.

Results

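The complement and coagulation factors examined here are 34 genes whose products are plasma proteins, or proteases and inhibitors that act on them, taken as a list of gene symbols. Where several probe sets carried a gene's symbol and no other, the brightest on average stood for the gene. By that rule 32 of the 34 genes had a probe set, and all 32 passed the filter on low signal, which kept genes over a log2 level of 4 on at least 4 of the 19 arrays. C3 and Cpb2 had no probe set with a single symbol and are not analysed here. The 32 genes are a small share of the 8515 genes tested and of the 18193 genes with a usable probe set.

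Liver RNA was measured in male C57BL/6 mice aged 10-12 weeks, all killed 2 hours after 85% of the liver had been resected. There were 5 wild-type (WT) mice, 6 mice null for Ager, 4 mice null for Myd88 and 4 mice null for both genes, called double null below. RAGE, the product of Ager, is a membrane receptor that binds S100 proteins, HMGB1 and glycated proteins, and Myd88 encodes the adaptor that carries signals from most Toll-like receptors and from the interleukin-1 receptor family. All groups were resected, so every difference below is between genotypes after resection and none is a response to resection. The labels do not say how the null alleles were made, whether the animals were littermates, or whether any were pooled.

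Most complement and coagulation proteins of the blood are made by hepatocytes. Complement is a chain of proteases: mannose-binding lectins and their MASP proteases, or the classical C1 complex, cut C4 and C2, factor B drives the alternative loop, and cleavage of C3 and then C5 lets C6, C7, C8 and C9 build a pore in a membrane. Coagulation is a second protease chain in which contact factors and tissue factor lead to thrombin and fibrin, while antithrombin, heparin cofactor II and the protein C system hold it back and plasmin dissolves the clot.

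RefSeq promoter windows, 250 bases before to 50 bases after a transcription start on GRCm38.p6, were at hand for 26 of the 34 genes and gave 27 windows. A core motif of HNF1, a hepatocyte transcription factor, was searched as GTTAAT on both strands. It lay in 7 of the 27 windows (25.9%), against 7.1% of all 32851 windows of that length. The 7 sites are shown because no other motif searched was in more of these windows, although most windows lack it and the C/EBP motif below was in as many. Each is printed 5′ to 3′ on the strand of its gene with the motif, or its reverse complement, in capitals.
C4bp, chr1:130661670-130661689, minus strand, 64 bases upstream of the start: ctagtctGTTAATcattcac
C8a, chr4:104876493-104876512, minus strand, 107 bases upstream: gttactaGTTAATcacattg
C8b, chr4:104766104-104766123, plus strand, 206 bases upstream: tacctgtATTAACcctctaa
F13b, chr1:139501649-139501668, plus strand, 51 bases upstream: tgtaattATTAACttgtttt
F2, chr2:91636437-91636456, minus strand, 8 bases downstream: gttcaatATTAACccagaga
Hc, chr2:35061474-35061493, minus strand, 74 bases upstream: attaataATTAACcggagaa
Vtn, chr11:78499001-78499020, plus strand, 112 bases upstream: cagggagATTAACgggactg
These are matches of letters in a window and not shown to be bound. The 7 genes span a complement inhibitor (C4bp), terminal pathway proteins (C8a, C8b and Hc), the multifunctional adhesion protein vitronectin (Vtn), prothrombin (F2) and the carrier subunit of factor XIII (F13b).

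The C/EBP motif, searched as TTGCNNAA, was in 7 windows (25.9%, against 10.8% of all windows), those of C3, C9, Cpb2, F11, F9, Klkb1 and Serpinc1. No window held both the HNF1 motif and this one. The HNF4 motif CAAAGT was in 6 windows (22.2% against 14.4%), the STAT motif TTCNNNGAA in 5 (18.5% against 8.3%), the NF-kB motif in 2 (7.41% against 5.55%) and the TATA box TATAAA in 4 (14.8% against 13.6%). The 250 bases upstream of C6 and F11 are printed because C6 was the called gene in Ager null livers and F11 had the widest difference between any groups. Capitals mark any match to the 6 motifs on either strand.
C6, chr15:4726960-4727209, plus strand: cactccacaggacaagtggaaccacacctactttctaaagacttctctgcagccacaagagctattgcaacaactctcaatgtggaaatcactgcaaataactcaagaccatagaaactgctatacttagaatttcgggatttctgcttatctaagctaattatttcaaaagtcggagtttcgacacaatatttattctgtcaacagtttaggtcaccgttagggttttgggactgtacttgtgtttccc
F11, chr8:45262032-45262281, minus strand: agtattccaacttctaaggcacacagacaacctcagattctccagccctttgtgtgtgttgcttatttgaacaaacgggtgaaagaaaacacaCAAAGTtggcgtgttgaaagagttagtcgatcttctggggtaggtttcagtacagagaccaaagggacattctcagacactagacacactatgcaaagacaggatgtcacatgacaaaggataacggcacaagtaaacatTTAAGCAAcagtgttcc
The C6 stretch holds no match to any of the 6 motifs. The F11 stretch holds an HNF4 motif starting 157 bases upstream and a C/EBP motif starting 17 bases upstream of the start.

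Medians over all probe sets were alike, between 2.75 and 2.83 on the log2 scale, but these lie under the filter level of 4. Over the tested genes the array medians ran from 7.67 (Ager null 6) to 7.87 (Myd88 null 4). Counts with arrays centred on those medians are given below for several comparisons. The array of the Myd88 null replicate 4 stood somewhat apart, with a median correlation of 0.965 with the others, where the remaining arrays had at least 0.979. Myd88 itself was at 5.24 to 5.92 in WT livers and at 3.11 to 3.85 in Myd88 null livers. Ager was near background everywhere, with its brighter probe set at 2.90 to 3.49 in WT and 2.85 to 3.38 in Ager null livers, so the arrays do not check the Ager genotype. Although the labels describe RNA extraction from glomeruli, 10 of 12 hepatocyte markers were measured above the filter, with albumin at a mean of 15.1, and 6 of 7 measured podocyte and tubule markers were under it. The sample descriptions carry a running S number whose meaning is not stated. All 6 Ager null arrays have numbers from 13 to 20, a range that holds only 1 WT array (replicate 5), 1 Myd88 null array (replicate 4) and no double null array. The Ager null group and the S number therefore cannot be told apart in full, and differences within shared ranges are given below for the main genes and for the counts of genes in a direction.

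Complement and coagulation transcripts varied little within a genotype. The residual standard deviation over the 4 groups had a median of 0.129 on the log2 scale for the 32 genes. The median was 0.273 for all tested genes, and 30 of the 32 were under it. The 32 genes are bright, with a lowest value of 8.96 beside array medians of 7.67 to 7.87. No genes of like level were compared. In Ager null against WT livers the median half-width of the 95% interval was 0.19 for the 32 genes. It was 0.16 for the 10 hepatocyte markers and 0.34 for all tested genes. The small spread is therefore not shown to be particular to the 32 genes. Antithrombin (Serpinc1), the main plasma inhibitor of thrombin and factor Xa, had the smallest spread at 0.053. F11, the zymogen of the contact pathway that activates factor IX, had the widest at 0.464. The members also tended to go up and down together within groups. Over 496 pairs the median correlation of deviations from the group means was 0.22, against 0.017 over pairs of all tested genes, and 115 pairs exceeded 0.5 while 22 were under -0.5. These correlations are across 19 arrays whose values share normalization and are given as a description.

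**Figure D1:**
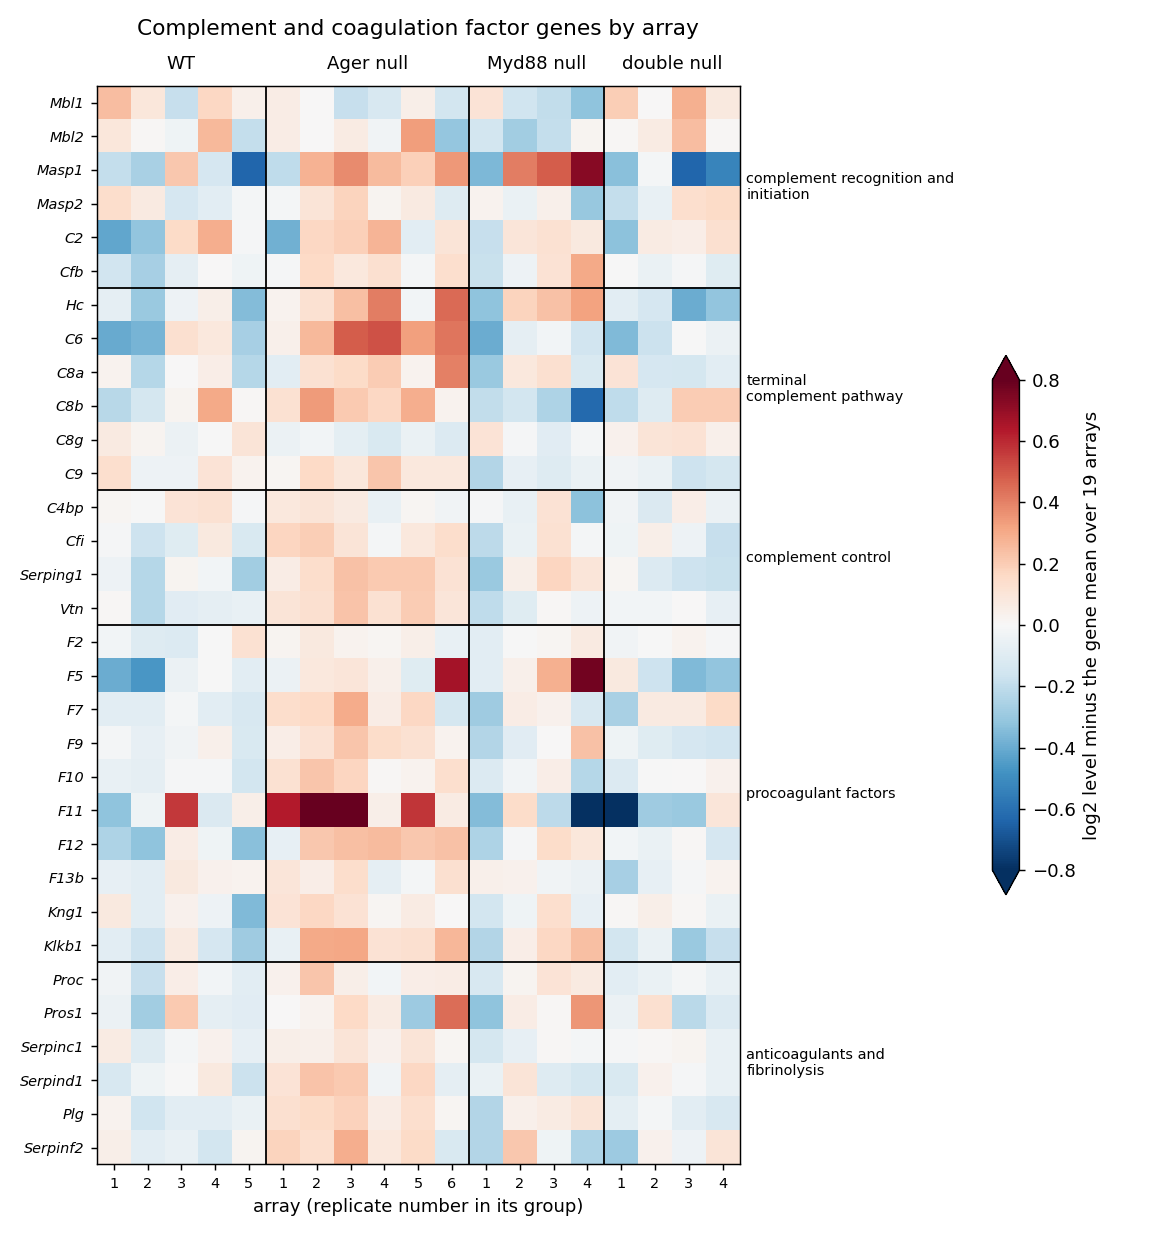
Heat map of the 32 genes (rows, grouped by role) on the 19 arrays (columns, grouped by genotype); colour gives the log2 level minus the gene's mean over 19 arrays, and values beyond 0.8 in either direction take the end colours. Most rows are red on most of the 6 Ager null arrays, though many of these rows are not red on all 6. Masp1 and F5 are also red in 3 of the 4 Myd88 null arrays, and single arrays stand out for F11.

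Loss of Ager with Myd88 intact went with slightly higher levels of most of these genes. In Ager null against WT livers 28 of the 32 changes were above 0, where 52.2% of all tested genes were, and the median change was 0.17 on the log2 scale against 0.02 for all genes. Only C6, the terminal pathway protein that joins C5b to begin the membrane attack complex, passed the test (limma with Benjamini-Hochberg adjustment over all tested genes, adjusted p under 0.05). That is 1 of 32 beside 1.26% of all genes called. By the looser criterion of an unadjusted p under 0.05, 10 of 32 were higher and 0 lower, beside 12.9% of all genes higher and 8.68% lower. Against the single WT array in the S range of the Ager null arrays, 29 of the 32 differences were above 0. Their median was 0.21, and 51.1% of all genes were above 0. The 4 genes below 0 were Mbl1 (-0.13), Mbl2 (-0.01), C8g (-0.10) and C4bp (-0.01).

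The C6 log2 levels in the 5 WT livers were 10.99, 11.02, 11.52, 11.48 and 11.13. In the 6 Ager null livers they ran from 11.43 through a median of 11.77 to 11.90. The lowest Ager null liver was below the 2 highest WT livers, so the groups overlapped at their edges. The fitted change was 0.51 ± 0.12 (SE), a fold of 1.42 with a 95% interval of 0.25 to 0.76 on the log2 scale (limma, adjusted p = 0.0493). C6 in Myd88 null livers was 10.99, 11.32, 11.37 and 11.24, and in double null livers 11.04, 11.22, 11.39 and 11.35, so that every liver of these groups was below the lowest Ager null liver. Against the single WT array in the S range of the Ager null arrays the C6 difference was 0.61, and those of Masp1, Hc and F12, described below, were 0.84, 0.55 and 0.52. C6 also differed between S ranges within WT, at 10.99 and 11.02 in S 1 to 6 and 11.52 and 11.48 in S 7 to 12. That step was about as wide as the fitted change. Double null livers had 11.04 and 11.22 in S 1 to 6 and 11.39 and 11.35 in S 7 to 12. The part of the S number in the C6 change cannot be told apart in full. The C6 call was close to the threshold. It held on leaving out WT 3, WT 4, Ager null 1, Myd88 null 1 or Myd88 null 4 and was lost on leaving out any of the other 14 arrays, over which runs the change stayed between 0.45 and 0.58 and the limma adjusted p between 0.0304 and 0.130. It was also lost with the S range as a fixed block (limma adjusted p = 0.0689) and, in an alternative added after the data were seen, without the WT and Myd88 null arrays numbered 13 to 20 (0.113). Over the 13 other settings of the analysis the limma adjusted p ran from 0.0161 to 0.113 and the change from 0.47 to 0.57.

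Among the other terminal pathway genes, C5 (Hc), whose cleavage starts pore assembly, was next in size at 0.35 ± 0.13. C8a and C8b, 2 chains of the pore protein C8, had changes of 0.21 and 0.20, C9, which forms the ring of the pore, had 0.07, and none of these 4 passed the test. In complement recognition the protease gene Masp1 had 0.41 ± 0.18 and the other 5 genes lay between -0.13 and 0.18 on their brightest probe sets. A second Masp2 probe set gave 0.26, where the brightest gave 0.05, and the other C2 probe sets gave 0.26 and 0.04. C2 and Cfb sit on chromosome 17 near Ager, with 15 and 14 protein-coding genes between them and Ager, and had changes of 0.10 and 0.18, neither of which was called.

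The groups did not overlap for 3 genes, Serping1, Vtn and F10, all higher in Ager null livers, beside 2.48% of all tested genes in that direction. Serping1, the C1 inhibitor that also restrains kallikrein and factor XII, was at 13.27, 13.08, 13.33, 13.29 and 13.03 in WT livers and from 13.37 through 13.48 to 13.54 in Ager null livers, a change of 0.27 ± 0.09. Vtn was at 13.77, 13.53, 13.66, 13.68 and 13.70 in WT livers and from 13.85 through 13.88 to 13.98 in Ager null livers, a change of 0.24 ± 0.07 (limma adjusted p = 0.0819). F10, the zymogen of the protease that makes thrombin, was at 12.63, 12.61, 12.68, 12.68 and 12.54 in WT livers and from 12.69 through 12.81 to 12.91 in Ager null livers, a change of 0.17 ± 0.07. None of the 3 passed the adjusted test.

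All 10 procoagulant genes were above 0 and none passed. The smallest p among them was that of F12, the contact factor XII, at 12.29, 12.22, 12.59, 12.51 and 12.20 in WT livers and from 12.47 through 12.76 to 12.79 in Ager null livers. Its change was 0.36 ± 0.10, a fold of 1.28 (limma adjusted p = 0.0669), with an overlap of a single Ager null liver. Klkb1, prekallikrein, which factor XII activates, was at 0.30 ± 0.10, and Kng1, the kininogen that carries prekallikrein, at 0.15 ± 0.08. F11 had a large but uncertain change of 0.49 with an interval of -0.06 to 1.04. Prothrombin (F2) was at 0.05 ± 0.07. All 6 anticoagulant and fibrinolysis genes were above 0 as well, between 0.07 for Serpinc1 and 0.18 for plasminogen (Plg), and none passed. For 31 of the 32 genes the 95% interval lay within 2-fold in either direction and for 25 within 1.41-fold.

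Markers of other cells moved with the comparison too. Of the hepatocyte markers 9 of 10 tested were above 0 in Ager null against WT livers, with a median change of 0.11, and 0 of them passed or had an unadjusted p under 0.05 in limma. The mean level of that list was 12.94 to 13.25 on the WT arrays and 13.15 to 13.24 on the Ager null arrays. Of the stellate cell and fibroblast markers 6 of 6 tested were above 0 with a median of 0.61, and Col1a2, a collagen chain, passed at 0.72 ± 0.15 (limma adjusted p = 0.0357). The stellate list averaged 5.96 to 6.36 on the WT arrays and 6.27 to 6.76 on the Ager null arrays. Des and Col1a1 of that list were under the filter. Col1a2 was near background, with a mean of 3.82 and values of 3.27 to 4.79 over all arrays, beside the filter level of 4. Kupffer cell and macrophage markers were below 0 in 8 of 10 with a median of -0.22, and 0 passed or had an unadjusted p under 0.05 in limma. Col1a2 was the only marker of any list to pass in this comparison. The part of these shifts in the changes above was not tested, and in whole liver RNA a different mix of cells and a different level per cell cannot be told apart.

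**Figure D2:**
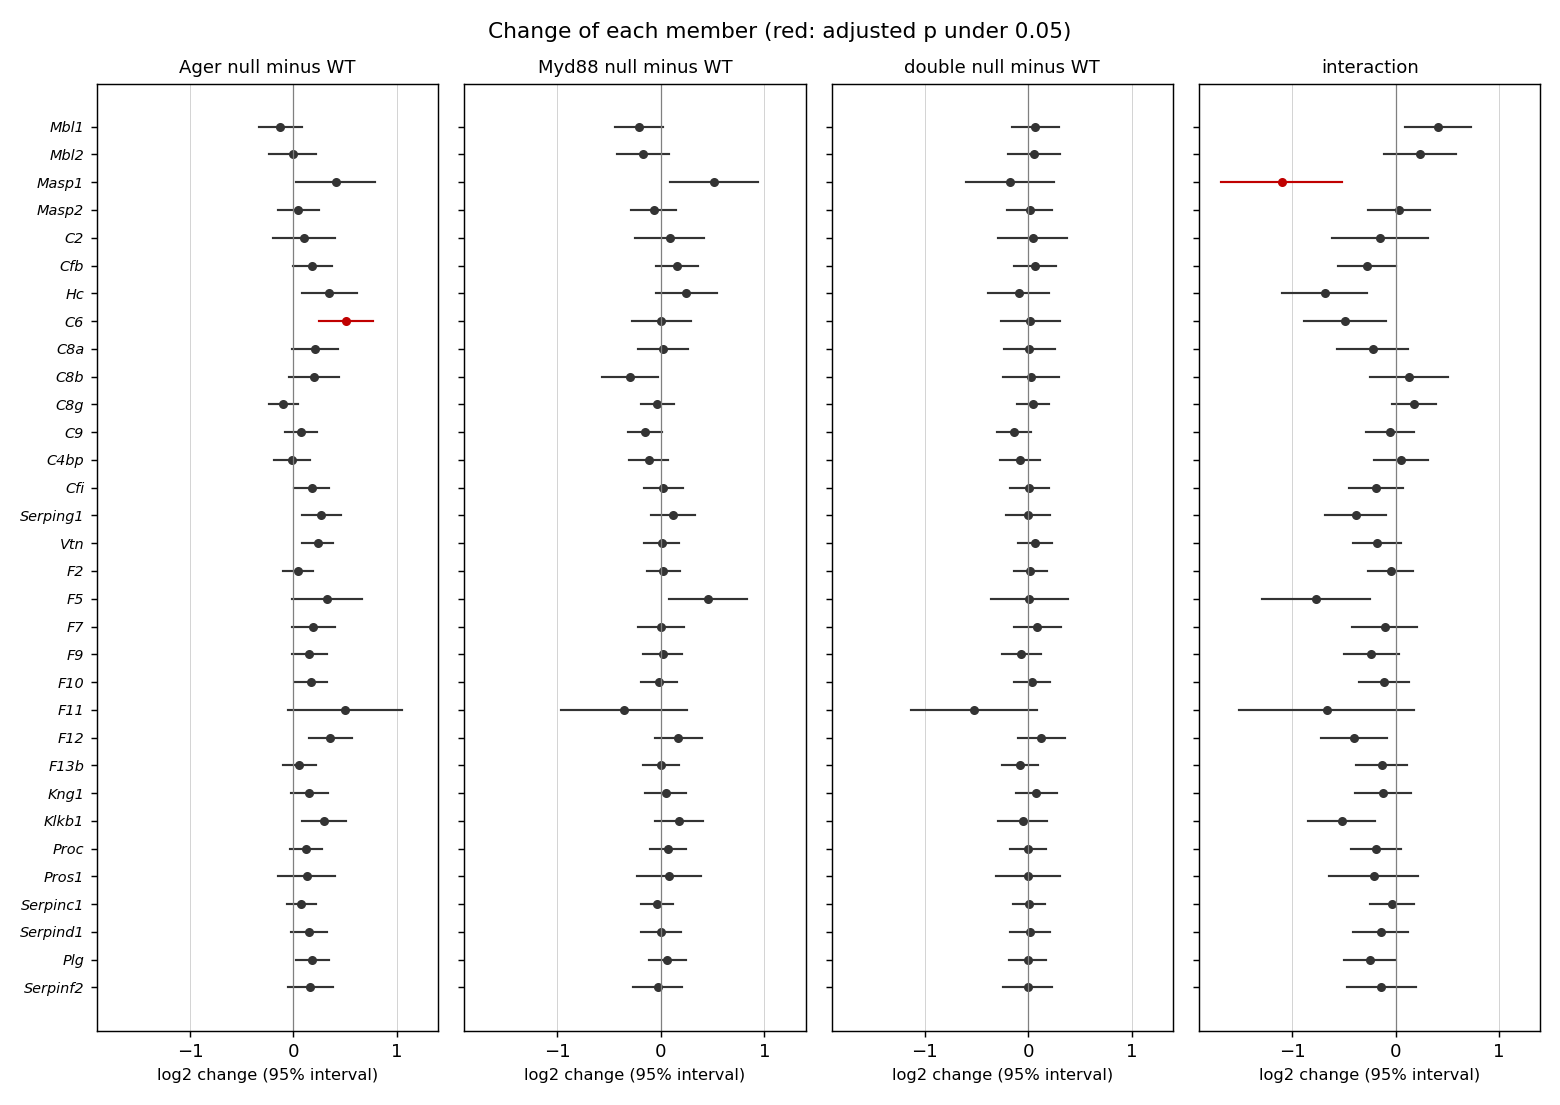
Fitted log2 change (points) with its 95% interval (lines) for each of the 32 genes in Ager null, Myd88 null and double null livers against WT, and for the interaction; red marks an adjusted p under 0.05. Points sit to the right of 0 for 28 genes in the first panel, C6 being the red one, gather around 0 in the third, and lie left of 0 for 26 genes in the fourth, Masp1 being the red one.

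Loss of Myd88 with Ager intact moved the genes in no common direction. In Myd88 null against WT livers 21 of the 32 changes were above 0 and 11 below, with 59.2% of all genes above 0, and the median change was 0.01, but with each array centred on its own median the counts were 6 above and 26 below. By limma 0 of 32 passed the test, beside 0.399% of all genes, and 3 had an unadjusted p under 0.05, of which 2 were higher and 1 lower, beside 15.3% of all genes higher and 4.23% lower. The 3 were Masp1, F5 and C8b. F5, the cofactor of factor Xa, was at 11.70, 11.63, 12.06, 12.10 and 12.02 in WT livers and at 12.02, 12.15, 12.38 and 12.88 in Myd88 null livers, a change of 0.45 ± 0.18 (limma adjusted p = 0.181). C8b was at 12.34, 12.42, 12.58, 12.86 and 12.57 in WT livers and at 12.36, 12.41, 12.31 and 11.93 in Myd88 null livers, a change of -0.30 ± 0.13 (limma adjusted p = 0.221). In both genes the farthest value came from Myd88 null replicate 4, the array that stood apart, and the groups overlapped. Without that array the F5 change was 0.28 and the C8b change -0.19. Within the 3 S ranges 18, 19 and 21 of the 32 differences were above 0, beside 61.2%, 57.6% and 54% of all genes. Each range held 1 or 2 arrays a group. C9 was the only gene whose groups did not overlap (-0.15, beside 1.27% of all genes lower without overlap). Kupffer cell and macrophage markers were lower here in 9 of 10, with a median of -0.67 and 0 passing the limma test, although 2 had an unadjusted p under 0.05. Their mean level was 6.46 on Myd88 null replicate 4 and 8.09 to 8.32 on the other 3 Myd88 null arrays, and the part of this in the changes above was not tested.

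In livers without both genes no member differed detectably from WT. In double null against WT livers 21 of 32 changes were above 0, where 64.1% of all genes were, and the median was 0.01 against 0.07, but 1 was above 0 and 31 below with arrays centred on their medians. By limma 0 of 32 passed, beside 0.317% of all genes, and 0 had an unadjusted p under 0.05, beside 8.57% of all genes. For 30 of 32 genes the 95% interval lay within 1.41-fold. The 3 smallest p belonged to F11 (-0.53 ± 0.29), C9 (-0.14 ± 0.08) and F12 (0.13 ± 0.11), with limma adjusted p of 0.668, 0.692 and 0.795. The F11 change was -0.19 without double null 1 and -0.72 without double null 4. Within the 2 shared S ranges, 22 and 10 of the 32 differences were above 0, beside 60.5% and 57.3% of all genes. C6 had a change of 0.02 with an interval of -0.26 to 0.31, and Vtn one of 0.06.

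Against Ager null livers, double null livers had lower levels of most of the genes. Of the 32 changes 29 were below 0, where 43.7% of all genes were, with a median of -0.15 against 0.04. No gene passed by limma, 0 of 32 beside 2.44% of all genes, while 11 were lower and 0 higher at an unadjusted p under 0.05, beside 8.03% of all genes lower and 14.7% higher. The Ager null arrays enter this comparison and the one with WT, so the mirrored pattern is not a second observation. The groups did not overlap for 8 genes, of which Hc, C6, C9, Serping1, Vtn, F9 and Plg were lower, beside 3.55% of all genes, and C8g was higher, beside 4.84%. The Ager null and double null arrays share none of the S number ranges. Col1a2, near background as given above, fell by 0.64 in this comparison (limma adjusted p = 0.0475). The hepatocyte markers were lower in 9 of 10 with a median of -0.08 and 0 passing in limma (1 at an unadjusted p under 0.05). The part of these marker shifts in the changes of the 32 genes was not tested.

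C6, with the double null values given above, differed by -0.49 ± 0.13 (limma adjusted p = 0.0556). Hc was at 12.89, 12.84, 12.58 and 12.66 in double null livers and from 12.96 through 13.16 to 13.43 in Ager null livers, a difference of -0.44 ± 0.14 (limma adjusted p = 0.0879). The lowest Ager null liver was just above the highest double null liver. F11 was at 8.96, 10.18, 10.17 and 10.56 in double null livers and from 10.51 through 11.07 to 11.47 in Ager null livers. Its difference was -1.02 ± 0.28, a fold of 0.493 (limma adjusted p = 0.0593). The value of 8.96 in double null replicate 1 lay far under the other 3, and without that array the difference was -0.69. Leaving out arrays brought single genes past the threshold: C6 without WT 3, Ager null 1 or Myd88 null 1, and F11 without Myd88 null 4. Without Myd88 null 1 there were 4 genes called in all (Masp1, Hc, C6 and Klkb1), beside 4.32% of all genes in that run, an array that is in neither group and enters through the shared estimate of spread.

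**Figure D3:**
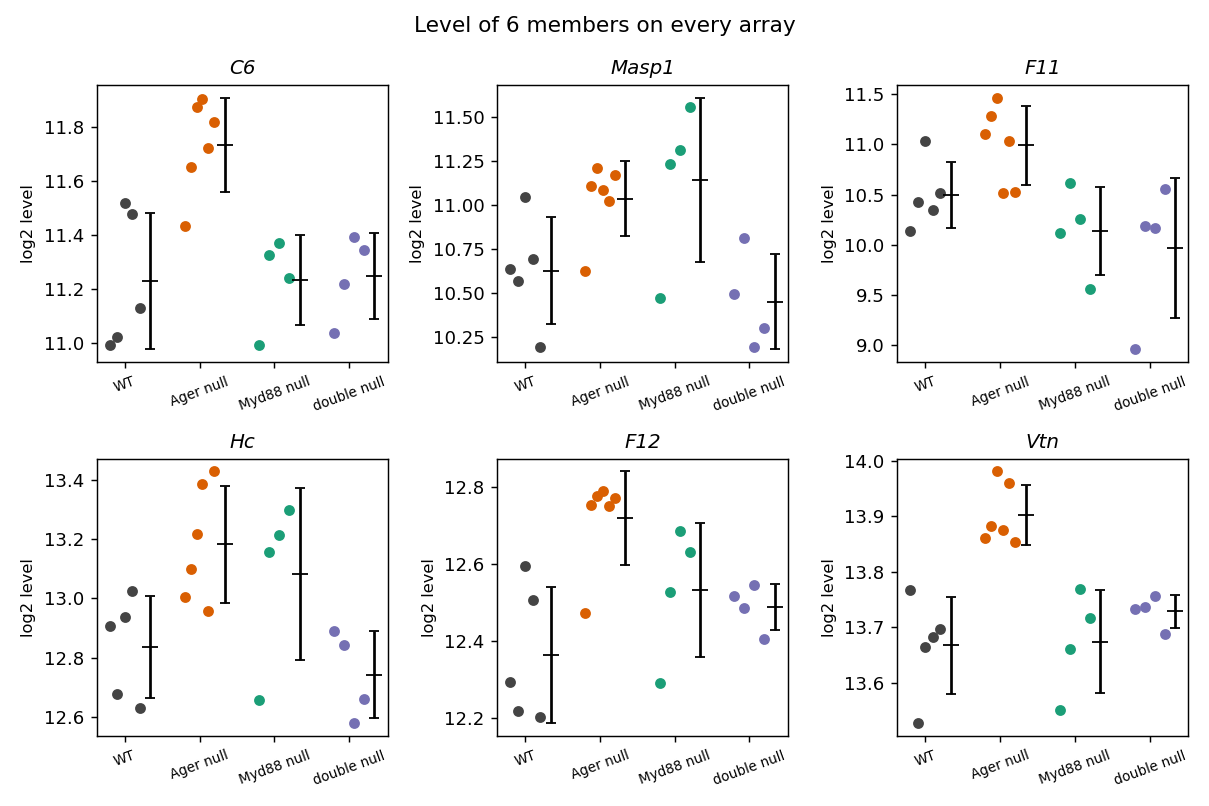
Log2 levels of C6, Masp1, F11, Hc, F12 and Vtn on every array (points) by genotype, with the group mean and standard deviation (bar to the right of the points); each panel has its own axis. For C6 the 6 Ager null livers lie from 11.43 to 11.90 above all Myd88 null and double null livers, and for F11 a single double null liver lies at 8.96.

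The remaining pairs of genotypes held no called gene. Double null against Myd88 null livers had 15 of 32 changes above 0 (18 with arrays centred on their medians), with 49.8% of all genes above 0, and by limma 0 passed, beside 0.153% of all genes. At an unadjusted p under 0.05, 2 were higher and 3 lower, beside 7.02% and 9.07% of all genes. The 3 smallest p were those of Masp1 (-0.69 ± 0.21), C8b (0.33 ± 0.14) and Mbl1, a mannose-binding lectin (0.28 ± 0.11), with limma adjusted p of 0.200, 0.271 and 0.265. Mbl1 was at 12.39, 12.19, 12.47 and 12.27 in double null and at 12.30, 12.03, 11.99 and 11.87 in Myd88 null livers, which overlapped. Without Myd88 null 1 there were 2 called genes, Masp1 (-0.92) and Hc (-0.48), while the share of all genes called went from 0.153% to 5.24%. Within the 2 shared S ranges 19 and 10 of the 32 differences were above 0, beside 49.7% of all genes in each. Kupffer cell and macrophage markers were above 0 in 10 of 10, with a median of 0.54 and 0 passing in limma (1 at an unadjusted p under 0.05), and their part in these changes was not tested.

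Ager null against Myd88 null livers had 29 of 32 changes above 0, where 41.5% of all genes were, with a median of 0.12 against -0.05. Against the single Myd88 null array in the S range of the Ager null arrays, replicate 4, only 20 of 32 were above 0 and 12 below. The median was 0.09, and 44.8% of all genes were above 0. By limma 0 passed, beside 1.26% of all genes, and 6 were higher and 0 lower at an unadjusted p under 0.05, beside 5.16% and 10.7% of all genes. C6 (0.50 ± 0.13, limma adjusted p = 0.063), C8b (0.49 ± 0.12, 0.0572) and F11 (0.85 ± 0.28, 0.140) had the smallest p. Against that single array their differences were 0.49, 0.81 and 1.43. C8b ran from 12.58 through 12.74 to 12.90 in Ager null livers, all above the 4 Myd88 null values given above. The groups did not overlap for 5 genes, C6, C8b, C9, Vtn and Serpinc1, all higher in Ager null livers, beside 1.32% of all genes. Only in this pair of groups were the deviations of all 4 pairs of same-numbered arrays correlated over 0.1. In Myd88 null against WT livers those correlations were above 0 as well (0.046 to 0.305). Correlations between arrays of different numbers are not given here for comparison. With the replicate number as a block C6 was called (0.50, limma adjusted p = 0.0244, in a range of 0.0244 to 0.154 over 13 other settings). Kupffer cell and macrophage markers were above 0 in 9 of 10, with a median of 0.60 and 0 passing in limma (3 at an unadjusted p under 0.05). Stellate cell markers were above 0 in 5 of 6, of which Col1a2, near background as given above, passed at 0.80 (limma adjusted p = 0.0218). The part of these shifts in the changes of the 32 genes was not tested.

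Whether the loss of both genes equals the sum of the single losses was asked with the interaction term, the double null change against WT minus the changes of both single nulls. It was below 0 for 26 of 32 genes, where 51.7% of all genes were, with a median of -0.17 against -0.02. Hepatocyte markers were below 0 in 8 of 10 with a median of -0.19, of which Apob (-1.09) and Hnf4a (-0.37) had an unadjusted p under 0.05 and 0 passed in limma. Kupffer cell and macrophage markers were above 0 in 9 of 10 with a median of 0.78 and 0 passing (2 at an unadjusted p under 0.05), and the part of these lists in the members' values was not tested. No S range holds all 4 genotypes, so the interaction has no value within a range. Among the 32 genes Masp1 alone passed, 1 of 32 beside 2.41% of all genes, and 8 genes below 0 and 1 above had an unadjusted p under 0.05, beside 15.6% and 11.7% of all genes. Masp1 encodes a protease that rides on mannose-binding lectins and ficolins and cuts MASP-2 in the lectin pathway. Its log2 levels were 10.63, 10.56, 11.04, 10.69 and 10.19 in WT livers and ran from 10.63 through 11.09 to 11.21 in Ager null livers. They were 10.47, 11.23, 11.31 and 11.55 in Myd88 null livers and 10.49, 10.81, 10.19 and 10.30 in double null livers. Most single null livers were thus above most WT and double null livers, with overlaps in both directions. The interaction was -1.10 ± 0.28 with a 95% interval of -1.69 to -0.51 (limma adjusted p = 0.0479).

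Masp1 had 5 probe sets with its symbol, and the other 4 gave interactions of -0.22, -0.73, -0.42 and -0.11, all below 0 and all smaller. The pairs of genotypes behind it differed between probe sets. Double null minus Myd88 null, at -0.69 on the brightest, was 0.18, 0.28, -0.15 and -0.20 on the others in the same order, and double null minus WT, at -0.18 on the brightest, was 0.31, 0.70, 0.07 and -0.04. With the mean of the probe sets in place of the brightest the interaction was -0.52 and did not pass (limma adjusted p = 0.102). The call held without WT 3, Ager null 1, Myd88 null 1 or double null 2 and was lost without any of the other 15 arrays, with the interaction between -1.33 and -0.96 and the limma adjusted p between 0.00366 and 0.112. With the S range as a fixed block the limma adjusted p was 0.250, the highest over 12 other settings, of which the lowest gave 0.00636. Without Myd88 null 1 the interaction was called for 9 genes: Masp1, Hc, C6, Serping1, F5, F12, Klkb1 and Plg, below 0, and Mbl1, above 0, while the share of all genes called went from 2.41% to 20.4%. That liver had the lowest mean of the 32 genes among all arrays. Probe sets differed for other genes too. The second F5 probe set gave an interaction of -1.15, against -0.77 on its brightest, and the second Masp2 probe set gave -0.56, against 0.03.

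Averaged over both Ager backgrounds, loss of Myd88 gave 28 of 32 changes below 0 (all 32 with arrays centred on their medians), where 35.1% of all genes were, with a median of -0.06. By limma 0 passed, beside 0.517% of all genes, with 4 lower and 0 higher at an unadjusted p under 0.05 beside 3.18% lower and 12% higher of all genes. F11 (-0.69 ± 0.20), C9 (-0.18 ± 0.06) and C8b (-0.23 ± 0.09) had the smallest p, with limma adjusted p of 0.110, 0.127 and 0.226. Averaged over both Myd88 backgrounds, loss of Ager gave 28 of 32 changes above 0, where 53.1% of all genes were, with a median of 0.06, and by limma 0 passed, beside 0.294% of all genes, with 3 higher and 0 lower at an unadjusted p under 0.05 beside 5.06% higher and 4.35% lower. C8b (0.26 ± 0.09), C6 (0.26 ± 0.09) and Vtn (0.14 ± 0.05) led, with limma adjusted p of 0.341, 0.383 and 0.405. The backgrounds behind both averages differed. Without centring, Myd88 loss gave 11 of 32 changes below 0 with Ager intact and 29 in Ager null livers. Loss of Ager gave 28 of 32 above 0 with Myd88 intact and 15 in Myd88 null livers. Both averages hold the Ager null group, so they are not separate from the comparisons above.

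Each array can be summed up by the mean of its 32 deviations from the gene means. This score was -0.06 ± 0.08 (SD, n = 5) in WT, 0.12 ± 0.05 (n = 6) in Ager null, -0.03 ± 0.10 (n = 4) in Myd88 null and -0.07 ± 0.04 (n = 4) in double null livers. The lowest Ager null array was at 0.047, above the highest WT (0.020), Myd88 null (0.042) and double null (-0.036) arrays. The lowest of all arrays was Myd88 null 1 at -0.176. The scores of the roles went the same way in their group means: the Ager null mean was the highest of the 4 groups for recognition (0.06), terminal pathway (0.15), complement control (0.11), procoagulant factors (0.15) and anticoagulants and fibrinolysis (0.09). No test was made on the score.

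**Figure D4:**
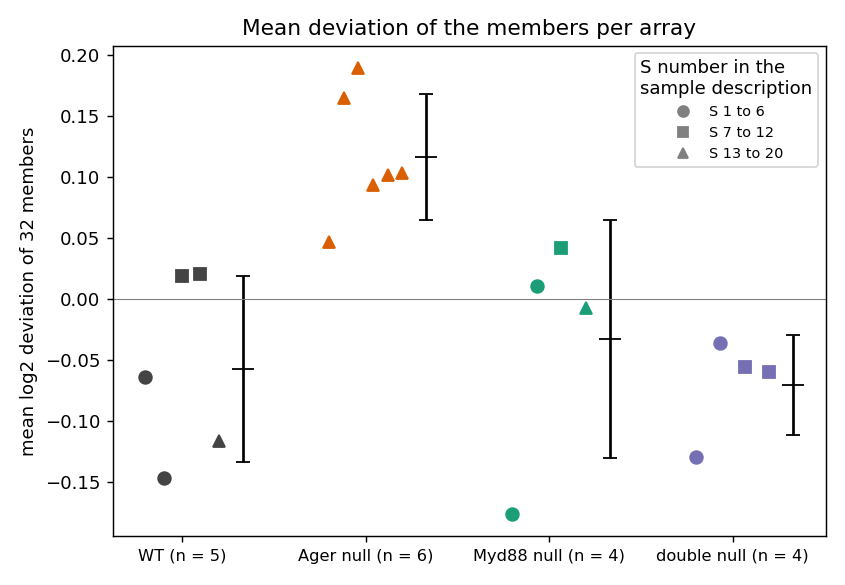
Mean log2 deviation of the 32 genes from their means over 19 arrays, one point per array by genotype, with the group mean and standard deviation beside the points; the marker gives the S number range of the sample description. The 6 Ager null arrays, all triangles, lie between 0.047 and 0.189, while the triangles of WT and Myd88 null lie under 0.

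A further list of complement and coagulation genes outside the 34 gives the setting, with 35 tested, 13 under the filter and 11 without a probe set of a single symbol. Taken whole it showed no common direction: in Ager null against WT livers 18 of 35 were above 0 and 17 below, with a median of 0.01. The list is mixed, and its kinds of gene were not counted apart. The fibrinogen chains Fga, Fgb and Fgg had higher means in Ager null than in WT livers, and the membrane protein gene Cd59a a lower one. The count therefore does not show whether plasma protein genes outside the 34 rose too. Only Habp2, a plasma protease able to activate factor VII, passed in Ager null against WT livers, 1 of 35 beside 1.26% of all genes, at 0.92 ± 0.22 (limma adjusted p = 0.048). It was at 7.57, 7.54, 8.72, 8.42 and 8.19 in WT livers and from 8.49 to 9.42 in Ager null livers, which overlapped, and its call was lost on leaving out any of 13 of the 19 arrays (limma adjusted p up to 0.118).

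In double null against Ager null livers 3 of the 35 passed, beside 2.44% of all genes. Cpn2, the regulatory subunit of carboxypeptidase N that inactivates complement anaphylatoxins and kinins, was at 11.27, 11.40, 11.09 and 11.31 in double null livers and from 11.73 to 12.04 in Ager null livers, without overlap, and fell by 0.65 (limma adjusted p = 0.039). Cd59a, the membrane protein that blocks the terminal pore, was at 10.04, 10.05, 10.22 and 9.95 in double null livers and from 9.20 to 9.68 in Ager null livers, also without overlap, and rose by 0.59 ± 0.13 (limma adjusted p = 0.0262). Gas6, a vitamin K-dependent ligand of the TAM receptors, rose by 0.77 ± 0.18 (limma adjusted p = 0.039), from 6.11 to 6.92 in Ager null livers to 7.33, 6.85, 7.59 and 7.36 in double null livers, with an overlap. The calls were lost on leaving out any of 5 arrays for Cd59a and any of 7 for Cpn2 or Gas6 (limma adjusted p up to 0.129, 0.156 and 0.156).

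The interaction passed for 3 of the 35, beside 2.41% of all genes: Cpn2 (-0.88 ± 0.21, limma adjusted p = 0.0442), Cd59a (0.71 ± 0.18, 0.0479) and Ggcx (-0.75 ± 0.19, 0.0494), the carboxylase that gives vitamin K-dependent clotting factors their calcium-binding residues. Ggcx was at 8.27, 8.42, 8.45, 8.16 and 8.13 in WT livers, from 8.48 to 8.95 in Ager null livers, at 8.39, 8.69, 8.95 and 8.17 in Myd88 null livers and at 8.21, 8.29, 8.25 and 8.46 in double null livers. All 6 Ager null livers were above all WT and double null livers. These 3 interaction calls were lost on leaving out any of 15, 15 and 16 arrays, in the order given. The fibrinogen chains Fga, Fgb and Fgg did not pass in any comparison, with WT means of 14.40, 14.70 and 14.59 and Ager null means of 14.49, 14.87 and 14.72.

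**Figure D5:**
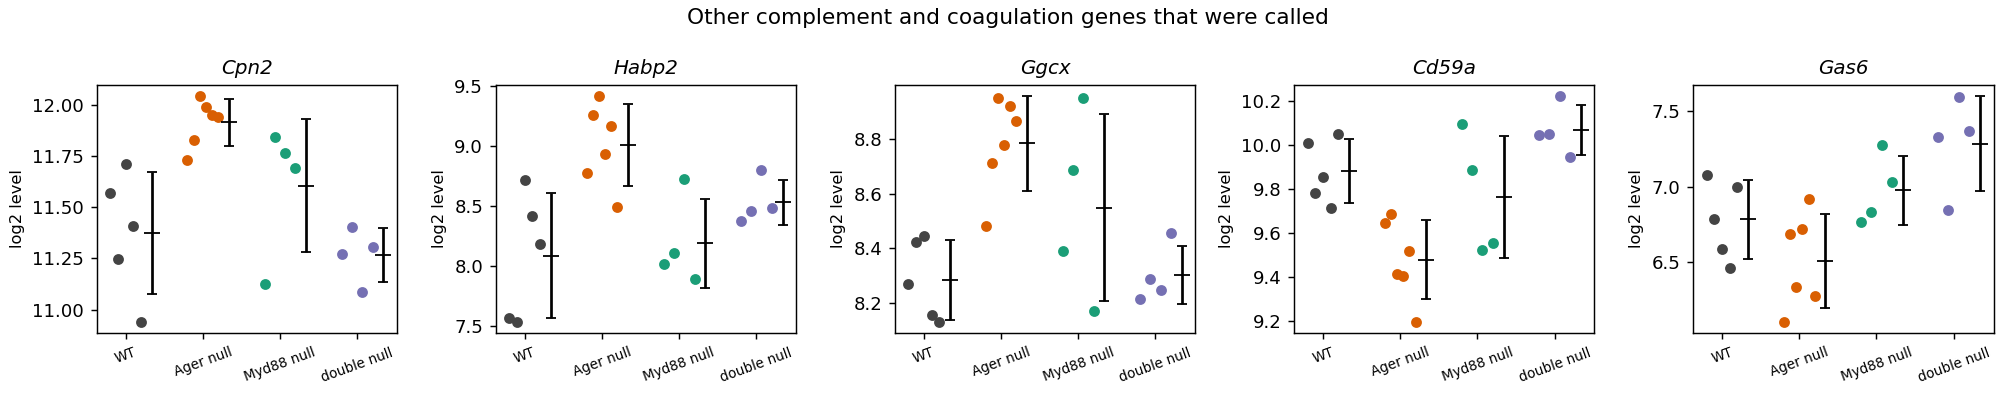
Log2 levels of the 5 called genes outside the 34, by genotype, one point per array with the group mean and standard deviation beside the points; each panel has its own axis. Cpn2 and Ggcx are highest in Ager null livers, Cd59a is lowest there, and Habp2 overlaps between WT and Ager null livers from 8.49 to 8.72.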

How the data were processed

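RNA from 19 mouse livers was hybridised to 1-colour Affymetrix arrays. The deposited values are log2 signals that the authors made with GCRMA 2.16, per the submitters' processing notes, which name the same version for R. They held 45101 probe sets, of which 34945 carried a single symbol in the platform annotation. The deposited log2 values ran from 0.743 to 15.6 and were used as they stand, without further normalization. GCRMA subtracts background by probe sequence, so low signals are compressed, and the number of arrays limits the precision. Each gene took its probe set of highest mean, and genes over log2 4 on at least 4 arrays were tested.

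The 4 genotypes were fitted in a single limma 3.58.1 model in R 4.3.3 with 15 residual degrees of freedom and no covariate, and 9 comparisons were drawn from it. P-values were two-sided and adjusted by Benjamini-Hochberg over 8515 genes, with calls made at an adjusted p under 0.05. The fit was tested on simulated data. The labels number replicates within a genotype without saying whether they come from separate litters or batches, so p-values measure the spread between these samples, and no pair of arrays in a group was alike enough to be the same sample (lowest root mean square difference 0.328).

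Members and gene lists were chosen with earlier results of these data known. Genes are described in full where they were called, and otherwise where they had one of the 3 smallest p in a comparison; those whose groups did not overlap were added after their values were seen. Lists of other complement and coagulation genes and of 9 kinds of cell type marker were read from the same fit. Of the shorter lists, sinusoidal endothelium markers were above 0 in 6 of 9 (median 0.28), neutrophil markers in 0 of 2, and the platelet, cholangiocyte and kidney lists in 0 of 1 each, in Ager null against WT livers, with 0 called by limma (1 at an unadjusted p under 0.05, endothelial); all 6 lymphocyte markers were under the filter.

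Same-numbered arrays were checked for pairing by the correlation of their deviations from group means. All pairs were over 0.1 only between Ager null and Myd88 null livers (0.109 to 0.471 over 4 pairs). Promoter sequences are from RefSeq on GRCm38.p6.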

Additional observations from a re-analysis of the deposited data

Results flagged for a closer look

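In 6 of 132 groups of 4 to 6 livers, 1 liver lay far from the rest by Dixon's ratio, where chance alone flags about 5% of groups. Ager null replicate 1 was the lowest of its group for Masp1 (10.63) and for F12 (12.47). Ager null replicate 6 was the highest of its group for F5 (12.77), and Ager null replicate 2 the highest for Proc, protein C (13.14). For C2 the first replicate was the lowest both in double null livers (9.97) and in Myd88 null livers (10.11).

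The effect of losing Ager on Masp1 differed between livers with and without Myd88 by the interaction test (-1.10, limma adjusted p = 0.0479, with 0.00366 to 0.112 when single arrays were left out). Masp1 was 0.41 higher without Ager where Myd88 was present and 0.69 lower where it was absent, on the log2 scale and on its brightest probe set. The next 2 brightest probe sets of Masp1 were 0.18 and 0.28 higher where Myd88 was absent, and with the mean of the probe sets that change was -0.12.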

How the results depend on the processing

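The number of the 32 genes called was small and moved with the settings. In Ager null against WT livers it was 1, and became 0 with arrays centred on their medians, with no filter, with the S range as a fixed or a random block, with arrays 13 to 20 kept for Ager null only (an alternative chosen after seeing the data) or with only both groups in the fit, 5 with array quality weights and 3 with a trended robust prior. In double null against Ager null livers it was 0, and became 1 with renewed quantile normalization, median centring, a filter at log2 6, the replicate block or only both groups in the fit, 2 with the mean of a gene's probe sets, 6 with weights and 3 with the trended prior. In Ager null against Myd88 null livers 0 became 2 with median centring or the fixed S block, 1 with the probe set mean or the replicate block, 3 with weights and 4 with the trended prior. For the interaction 1 became 0 with median centring, no filter, either S block, the replicate block or the added alternative, 2 with the probe set mean, 8 with weights and 3 with the trended prior. Weights gave 1 in Myd88 null against WT and in double null against Myd88 null livers, and the trended prior gave 1 for Myd88 loss averaged over backgrounds. Calls over all genes rose with weights too, from 1.26% to 8.35% of genes in Ager null against WT, from 0.399% to 9.22% in Myd88 null against WT, from 2.44% to 7.27% in double null against Ager null, from 0.153% to 3.44% in double null against Myd88 null, from 1.26% to 5.41% in Ager null against Myd88 null livers and from 2.41% to 16.2% for the interaction. With the trended prior these shares were 1.55%, 0.47%, 2.5%, 0.188%, 1.67% and 3.28%, and 0.47% for averaged Myd88 loss. The causes were not tested. For most other settings and single arrays left out, the share of all genes called is not given here. The counts of those runs therefore do not show a change particular to the 32 genes. Leaving out single arrays gave 0 to 2 called genes in Ager null against WT, 0 to 1 in Myd88 null against WT, 0 to 0 in double null against WT, 0 to 4 in double null against Ager null, 0 to 2 in double null against Myd88 null, 0 to 1 in Ager null against Myd88 null, 0 to 9 for the interaction and 0 to 0 for both averages. The highest counts of the interaction and of both comparisons of double null with single null livers came without Myd88 null 1, where 20.4%, 4.32% and 5.24% of all genes were called. Directions held better: the 28 genes higher in Ager null than in WT livers were 28 to 30 under every alternative and every array left out, and the 29 lower in double null than in Ager null livers were 25 to 30. No named change of a single gene reversed sign under an alternative fit or with an array left out. Within single S ranges some uncalled changes did. C8b in Myd88 null against WT livers was 0.01 in S 1 to 6, against -0.30 in the main fit. F12 in double null against WT livers was -0.08 in S 7 to 12, against 0.13 in the main fit. With the replicate block, whose numbers are not known to pair livers, the limma adjusted p was above 0.05 for the interactions of Masp1 (0.0627), Cpn2 (0.0639), Cd59a (0.0612) and Ggcx (0.0647) and for Cpn2 (0.0518) and Gas6 (0.0532) in double null against Ager null livers, while C6 was called there (0.0300) and in Ager null against Myd88 null livers (0.0244). Centring arrays on their medians moved the all-gene median in Myd88 null against WT livers from 0.06 to -0.05 and the genes called higher and lower there from 27 and 7 to 5 and 7. The same split went from 71 and 36 to 50 and 41 in Ager null against WT, from 136 and 72 to 62 and 93 in double null against Ager null, and from 31 and 76 to 91 and 52 in Ager null against Myd88 null livers. The lowest value of any of the 32 genes was 8.96, far over the filter.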
